A study of Mus musculus with 8 samples.

Results

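Expression of 8 transcription factors that carry the signal of the circadian clock to other genes, or that feed back on the clock as accessory factors, was followed in brown adipose tissue, a fat depot specialised in making heat. They were chosen by gene symbol (Dbp, Tef, Hlf, Nfil3, Bhlhe40, Bhlhe41, Rora and Rorb) among the 21759 genes of the deposited table, and all 8 were found, each on 1 transcript cluster, the group of array probes placed along a gene. RNA came from mice of the C57BL/6 strain, all male, with 4 arrays in each of 2 groups: HFD, a high-fat diet, and NCD, an abbreviation that the labels do not spell out. The sources used here do not give the age of the mice, how long they were fed or the clock time at which tissue was taken. The labels do not say whether the arrays of a group came from separate animals, so every p-value measures the spread between arrays only, which may be technical.

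The mammalian clock is a feedback loop in which the proteins Bmal1 (gene Arntl) and Clock switch on genes through a DNA element called the E-box, and the Per and Cry proteins that result switch their own activators off. A second loop runs through the nuclear receptors Rev-erb (Nr1d1, Nr1d2) and ROR (Rora and Rorb among them), which compete for the same DNA element and repress or activate Arntl. Dbp, Tef and Hlf are the PAR bZIP activators, which bind D-box elements in output genes. Nfil3, also called E4bp4, is a repressor of the same D-box elements, and its own gene is a target of the Rev-erb and ROR receptors. Bhlhe40 and Bhlhe41, also called Dec1 and Dec2, are repressors that bind E-boxes. Transcripts of Dbp, Tef, Hlf, Nfil3 and the Bhlhe pair rise and fall over the day in many mouse tissues, whereas Rorb is best known from brain and retina.

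Promoter windows of the RefSeq table (assembly GRCm38.p6, 250 bases before to 50 after a start site) were found for 7 of the 8 factors, 9 windows in all. The windows that hold letters of a clock element are shown, because these are the elements through which the clock proteins and the factors themselves act. Capitals mark the E-box letters CACGTG in both Tef windows and in the Bhlhe41 window. In the Nfil3 window they mark TGACCTA, the opposite-strand reading of the ROR element letters TAGGTCA. All sequences run 5′ to 3′ on the strand of the gene.
Tef, first start, chr15:81802423-81802722, plus strand: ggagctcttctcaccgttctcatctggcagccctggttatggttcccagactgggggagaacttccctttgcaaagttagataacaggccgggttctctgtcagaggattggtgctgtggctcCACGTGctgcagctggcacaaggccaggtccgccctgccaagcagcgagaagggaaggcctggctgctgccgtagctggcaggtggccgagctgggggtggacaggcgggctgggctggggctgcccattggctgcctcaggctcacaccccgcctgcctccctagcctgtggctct
Tef, second start, chr15:81811164-81811463, plus strand: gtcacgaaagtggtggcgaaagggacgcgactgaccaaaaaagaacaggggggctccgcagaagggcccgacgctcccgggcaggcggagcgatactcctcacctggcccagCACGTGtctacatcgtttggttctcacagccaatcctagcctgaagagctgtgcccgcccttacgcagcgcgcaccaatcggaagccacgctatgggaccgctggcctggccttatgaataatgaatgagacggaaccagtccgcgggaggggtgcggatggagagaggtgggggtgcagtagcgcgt
Bhlhe41, chr6:145865371-145865670, minus strand: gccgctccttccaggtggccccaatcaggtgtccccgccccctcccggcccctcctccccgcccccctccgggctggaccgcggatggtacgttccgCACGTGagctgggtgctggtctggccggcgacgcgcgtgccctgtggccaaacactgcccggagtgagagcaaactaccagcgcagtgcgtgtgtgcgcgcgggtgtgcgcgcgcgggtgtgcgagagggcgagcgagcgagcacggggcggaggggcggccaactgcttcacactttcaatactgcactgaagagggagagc
Nfil3, chr13:52980990-52981289, minus strand: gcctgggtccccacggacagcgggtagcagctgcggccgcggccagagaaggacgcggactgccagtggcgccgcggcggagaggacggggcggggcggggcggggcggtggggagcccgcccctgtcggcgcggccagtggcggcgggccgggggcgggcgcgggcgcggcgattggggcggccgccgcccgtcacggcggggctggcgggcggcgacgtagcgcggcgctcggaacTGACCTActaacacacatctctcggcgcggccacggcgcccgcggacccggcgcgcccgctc

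The E-box letters began 127 and 138 bases before the start site in the Tef windows and 153 bases before it in the Bhlhe41 window. Of the 32851 windows of this length in the table, 7.15% held CACGTG on either strand. The Nfil3 match began 12 bases before the start site, and TAGGTCA or TGGGTCA was found on either strand in 6.45% of all windows. The D-box letters TTACGTAA or TTATGTAA were found on either strand in 1.06% of all windows and in 0 of the 9 windows of these factors. No match in a window says only that these letters are absent from it, and a match describes letters, not binding.

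Values below are normalized log2 intensities, on which a difference of 1 is a 2-fold change. The tissue label was borne out by brown adipocyte markers: Ucp1, the uncoupling protein of brown fat, lay between 12.79 and 12.92 on HFD arrays and between 12.85 and 12.95 on NCD arrays, near the top of the scale (13.79). Olfactory receptor genes, which fat is not expected to express, were used to judge dim signals. Their levels had their median at 4.50 and their 95th percentile at 6.46. Rorb lay below 6.46 on all 8 arrays, Dbp was above 6.46 on 3 arrays and Bhlhe41 on 4, whereas Tef, Hlf, Nfil3, Bhlhe40 and Rora were above it on all 8. Skeletal muscle markers were high on 2 arrays, 1 of each group: their mean over 12 genes was 9.70 on HFD 3 and 9.07 on NCD 1, against 5.37 to 5.60 on the other HFD arrays and 5.34 to 5.81 on the other NCD arrays. Markers of some other cell types of the tissue leaned one way and those of others did not, and 0 of them passed an adjusted p of 0.05 in limma. HFD means were higher for 5 of 6 macrophage, 5 of 5 fibroblast and 4 of 5 endothelial markers, and lower for 10 of 12 brown adipocyte markers. They were higher for only 3 of 5 lymphocyte and 3 of 5 nerve and Schwann cell markers, and lower for 4 of 4 blood markers. Over all 21759 genes, 10166 had a higher and 11433 a lower HFD mean. The median difference was -0.07 over the brown adipocyte markers, close to the -0.055 over all genes with means above 6.46. At an unadjusted limma p under 0.05, Cd68 of macrophages differed by 0.37, Pdgfra of fibroblasts by 0.28, Cd3e of T cells by 0.29 at a level below 6.46, and Adrb3, the adrenergic receptor of brown fat, by -0.40 (limma adjusted p = 0.548, 0.684, 0.668 and 0.566). The methods' t-test at the same cut had Cd68, Col1a1 and Ppargc1a. The array means of the 6 macrophage markers still overlapped, at 6.57 to 7.06 in HFD and 6.50 to 6.96 in NCD. The part of these markers in the differences of the factors was not tested. In whole tissue, fewer cells of a type and less RNA per cell cannot be told apart.

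**Figure D1:**
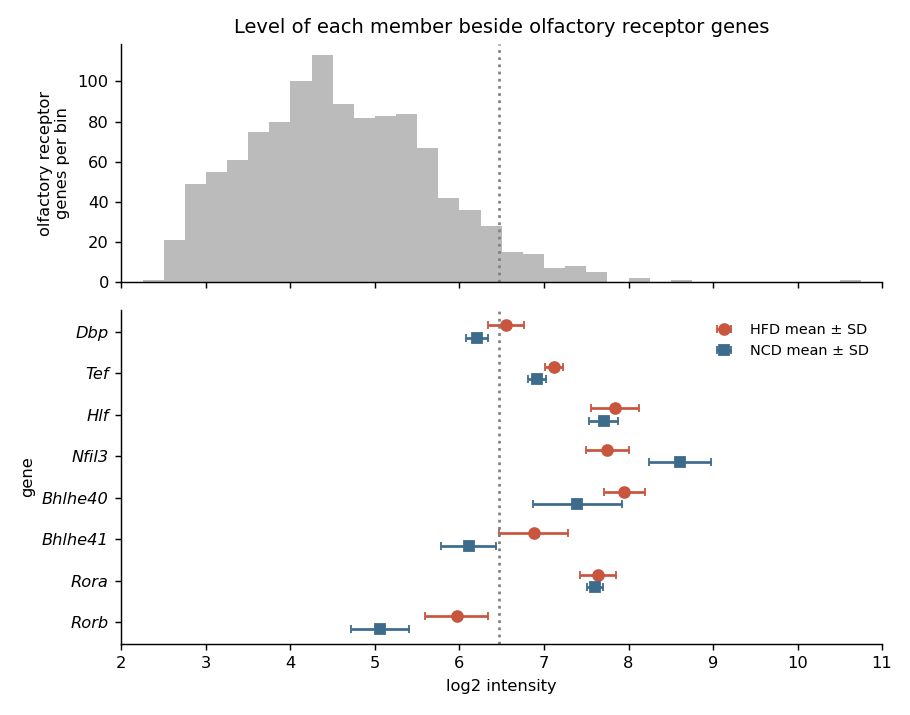
The upper panel counts olfactory receptor genes by mean log2 intensity over 8 arrays, with a dotted line at their 95th percentile (6.46). The lower panel gives the HFD and NCD means of each factor with SD over 4 arrays. Both Rorb means lie left of the line, and the Dbp and Bhlhe41 means lie on either side of it.

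The diet question was whether these factors differed between HFD and NCD arrays. The means of Dbp, Tef, Hlf, Bhlhe40, Bhlhe41, Rora and Rorb were higher in HFD and that of Nfil3 was lower, and Nfil3 had the largest difference of the 5 factors above 6.46 on all 8 arrays. The sizes for Rorb, Bhlhe41 and Dbp are uncertain, since these lay below 6.46 on some or all arrays. None of the 8 passed an adjusted p of 0.05 in limma (Benjamini-Hochberg over 21759 genes), a threshold that 31 genes, or 0.142% of all genes, passed (0.00919% higher and 0.133% lower). At an unadjusted limma p under 0.05 there were 4 factors with a higher and 1 with a lower mean in HFD, and the methods' t-test gave the same counts, with Tef in place of Bhlhe40. Over all genes 7.24% had an unadjusted limma p under 0.05 (1576 of 21759), 2.73% higher and 4.52% lower. The share was larger among genes with means above 6.46, at 853 of 7629 when these were fitted alone. The HFD and NCD arrays did not overlap for 2 of the 8, 1 higher and 1 lower, against 3.83% of all genes (1.33% higher and 2.5% lower). The median difference over the 8 factors was 0.28, against -0.01 over all genes.

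**Figure D2:**
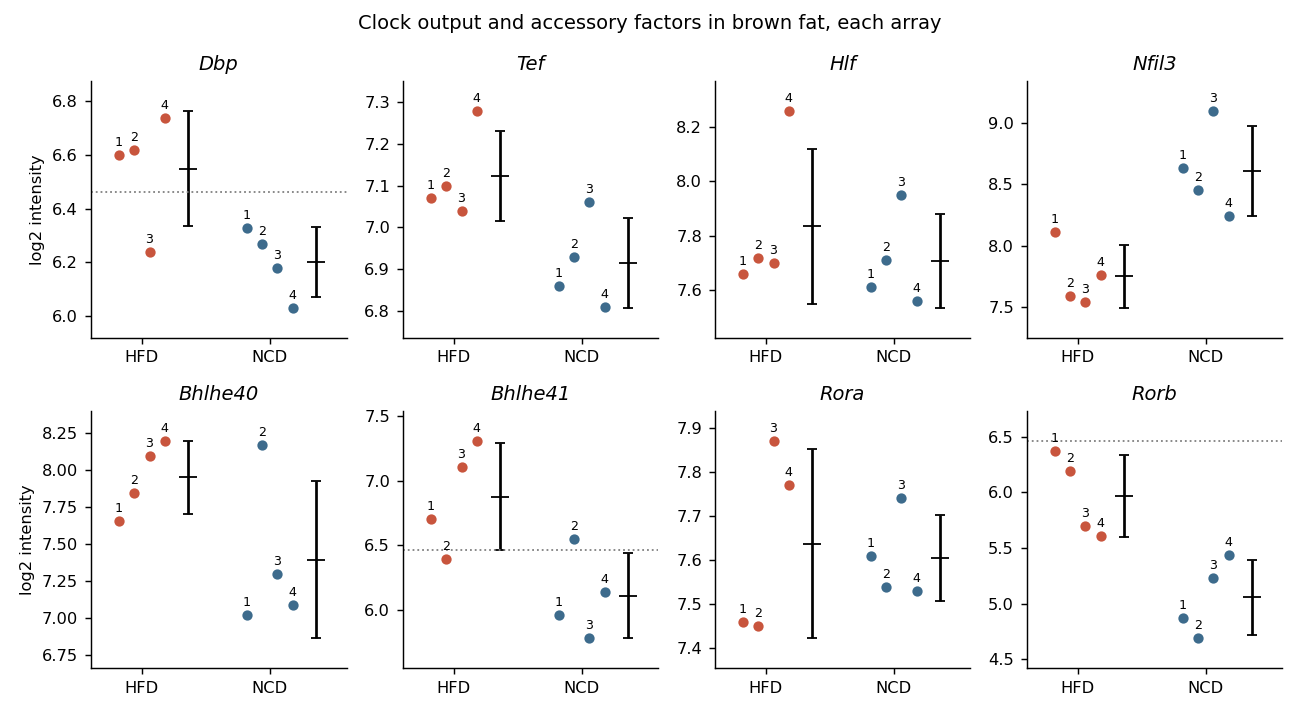
Each panel plots the log2 intensity of 1 factor on every array, numbered by replicate, with the group mean and SD (n = 4) in black and, where it falls in range, a dotted line at the olfactory receptor 95th percentile (6.46). HFD and NCD points are fully apart for Nfil3 and Rorb and overlap for the other 6 factors.

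Nfil3, the repressor of D-box elements, was the only one of the 8 with a lower mean in HFD. Its levels were 8.11, 7.59, 7.54 and 7.76 on HFD arrays 1 to 4, against 8.63, 8.45, 9.10 and 8.24 on NCD arrays 1 to 4. Every HFD array lay below every NCD array, and NCD 3 stood highest. The mean was 7.75 ± 0.26 in HFD and 8.605 ± 0.37 in NCD (SD, n = 4 each), 1.81-fold lower in HFD. The difference was -0.855 ± 0.17 (SE, 95% interval -1.225 to -0.485), with a limma adjusted p of 0.0817, the 48th smallest p among 21759 genes. An exact two-sided permutation test over the 70 assignments of arrays gave p = 0.0286, the smallest it can give. The limma call was on the other side of the threshold in 3 of the 20 alternatives: with an intensity trend and robust prior (adjusted p = 0.0286), without dim genes (0.0416) and without NCD 4 (0.0384). Over all 20 its adjusted p lay between 0.0286 and 0.620, the highest being that of the methods' t-test, and its difference between -0.98 and -0.685.

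In the file the Nfil3 cluster spans chromosome 13 from 53062578 to 53076408 on the minus strand, a whole gene with no exon positions. The sources used here do not name the build of these coordinates, and they are not comparable with the GRCm38.p6 windows above. The other clusters lie on chromosomes 7 (Dbp), 15 (Tef), 11 (Hlf), 6 (Bhlhe40 and Bhlhe41), 9 (Rora) and 19 (Rorb), and the transcript accessions of all 8 matched the RefSeq gene of the same symbol and chromosome.

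The 3 PAR bZIP activators, which share the D-box with Nfil3, had higher means in HFD by amounts that shrank from Dbp to Tef to Hlf. Dbp, whose daily amplitude is among the largest of any liver transcript, measured 6.60, 6.62, 6.24 and 6.74 on HFD arrays 1 to 4, against 6.33, 6.27, 6.18 and 6.03 on NCD arrays 1 to 4. HFD 3 alone lay among the NCD arrays. The Dbp mean was 6.55 ± 0.22 in HFD and 6.20 ± 0.13 in NCD (SD, n = 4 each), a difference of 0.35 ± 0.13 (SE, 95% interval 0.08 to 0.62, limma adjusted p = 0.547). As both means lie close to the olfactory receptor 95th percentile, the size of this difference is uncertain. HFD 3 is also 1 of the 2 arrays with high muscle markers: without it and NCD 1 the Dbp difference was 0.49 (limma adjusted p = 0.286), and the part of muscle RNA in it was not tested.

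Tef, the thyrotroph embryonic factor, was the least variable of the 8. It measured 7.07, 7.10, 7.04 and 7.28 on HFD arrays 1 to 4, against 6.86, 6.93, 7.06 and 6.81 on NCD arrays 1 to 4. The groups overlapped through NCD 3, which lay just above HFD 3. The difference was 0.21 ± 0.11 (SE, 95% interval -0.03 to 0.44, limma adjusted p = 0.736), from a mean of 7.12 ± 0.11 in HFD and 6.915 ± 0.11 in NCD (SD, n = 4 each). Hlf, the hepatic leukemia factor, measured 7.66, 7.72, 7.70 and 8.26 on HFD arrays 1 to 4, against 7.61, 7.71, 7.95 and 7.56 on NCD arrays 1 to 4. HFD 4 stood 0.54 above the next HFD array, and the other HFD arrays lay within the NCD range. The Hlf difference of 0.13 ± 0.14 (SE, 95% interval -0.18 to 0.44, limma adjusted p = 0.898) rested on HFD 4, since without that array it was -0.0142. Whether the 3 differences themselves differ was not tested.

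The E-box repressors Bhlhe40 and Bhlhe41 also had higher means in HFD. Bhlhe41 measured 6.70, 6.39, 7.11 and 7.31 on HFD arrays 1 to 4, against 5.96, 6.55, 5.78 and 6.14 on NCD arrays 1 to 4. HFD 2 and NCD 2 were the arrays that made the groups overlap. Its mean was 6.88 ± 0.41 in HFD and 6.11 ± 0.33 in NCD (SD, n = 4 each), 1.71-fold higher in HFD (difference 0.77 ± 0.19, SE, 95% interval 0.355 to 1.185, limma adjusted p = 0.220). The NCD mean lies below 6.46, so the size of the difference is uncertain.

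Bhlhe40 measured 7.66, 7.85, 8.10 and 8.20 on HFD arrays 1 to 4, against 7.02, 8.17, 7.30 and 7.09 on NCD arrays 1 to 4. NCD 2 lay with the HFD arrays, and the other NCD arrays lay below all of them. The mean was 7.95 ± 0.24 in HFD and 7.395 ± 0.53 in NCD (SD, n = 4 each), a difference of 0.56 ± 0.21 (SE, 95% interval 0.11 to 1.006, limma adjusted p = 0.566). Without NCD 2 the difference was 0.82 (limma adjusted p = 0.0733), and with both muscle-marked arrays (HFD 3 and NCD 1) removed it was 0.38 (limma adjusted p = 0.656). Without both NCD 2 and NCD 3, whose values spread most widely over all clusters, it was 0.8975 (limma adjusted p = 0.0963), over 1.5 times the value from all arrays. The residual SD of Bhlhe40, 0.41, was above that of 98.7% of the genes brighter than the olfactory receptor 95th percentile, and that of Bhlhe41, 0.37, above 97.9%.

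Of the ROR receptors Rora showed almost no difference and Rorb one of uncertain size at a low level. The difference between them was not tested. Rora, the member that is broadly expressed, measured 7.46, 7.45, 7.87 and 7.77 on HFD arrays 1 to 4, against 7.61, 7.54, 7.74 and 7.53 on NCD arrays 1 to 4. The HFD values split into a low and a high pair with the NCD values between them. The difference was 0.03 ± 0.12 (SE, 95% interval -0.23 to 0.30, limma adjusted p = 0.978), and its sign turned without HFD 3 (-0.045) and without HFD 4 (-0.0117).

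Rorb had a higher mean in HFD, but all 8 of its values lay below 6.46, where olfactory receptors also lie, so the size of its difference is uncertain. It measured 6.37, 6.19, 5.70 and 5.61 on HFD arrays 1 to 4, against 4.87, 4.69, 5.23 and 5.44 on NCD arrays 1 to 4. Every HFD array lay above every NCD array, with 0.17 between HFD 4 and NCD 4. The mean was 5.97 ± 0.37 in HFD, above that of 89.3% of olfactory receptor genes, and 5.06 ± 0.34 in NCD (SD, n = 4 each), above 66.5% of them. The difference was 0.91 ± 0.19 (SE, 95% interval 0.51 to 1.31, limma adjusted p = 0.0845), the 55th smallest p among 21759 genes, and the exact two-sided permutation p was 0.0286. Its limma call was on the other side of the threshold in 2 of the 19 alternatives that kept the gene, with an intensity trend and robust prior (adjusted p = 0.0442) and without NCD 4 (0.0453), and its adjusted p over the 19 lay between 0.0442 and 0.647. Neuron markers, measured because Rorb is known from brain, were dim: Snap25, Syt1 and Tubb3 all lay below 6.46, and the array means over these 3 genes were 5.36 to 5.64 in HFD and 5.30 to 5.69 in NCD.

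**Figure D3:**
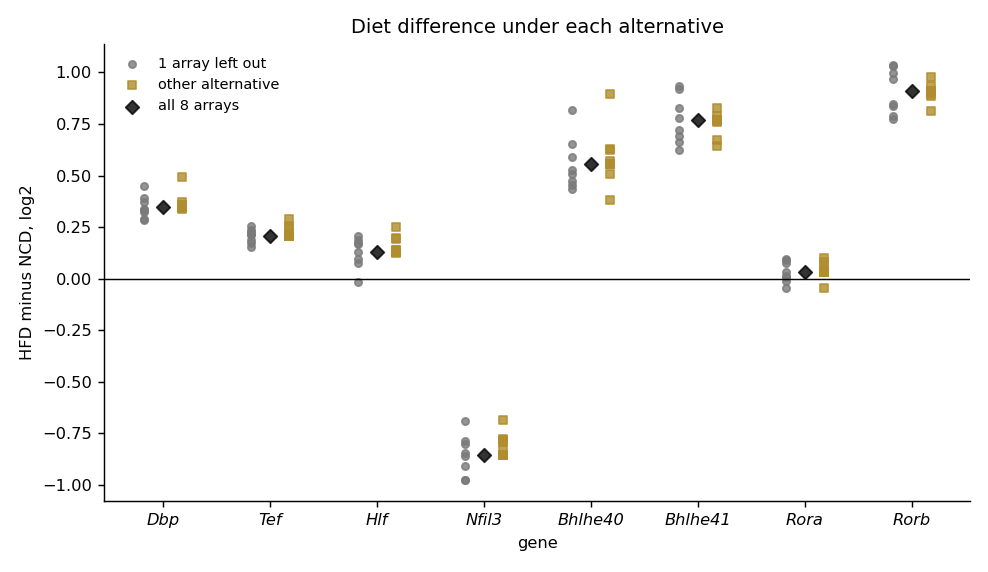
For each factor the black diamond is the HFD minus NCD difference (log2) over all 8 arrays, grey circles leave out 1 array and brown squares are the other alternatives. Nfil3 stays between -0.98 and -0.685 and Rorb between 0.78 and 1.04, while Hlf and Rora cross 0.

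In the authors' deposited table the signed fold for diet was -1.81 for Nfil3, 1.88 for Rorb, 1.71 for Bhlhe41, 1.47 for Bhlhe40, 1.27 for Dbp, 1.15 for Tef, 1.09 for Hlf and 1.02 for Rora. The p-value for diet in the authors' deposited table, which is not adjusted for the number of genes, was 0.01 for Nfil3 and Rorb, 0.03 for Bhlhe41, 0.04 for Dbp and Tef, 0.13 for Bhlhe40, 0.49 for Hlf and 0.79 for Rora.

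The factors also differed between arrays of the same diet. HFD 4 had the highest level of all 8 arrays for 5 factors (Dbp, Tef, Hlf, Bhlhe40 and Bhlhe41), against 10.1% of all genes, and NCD 4 the lowest of the NCD arrays for 5 (Dbp, Tef, Hlf, Nfil3 and Rora). In the core clock loop list, ties counted, HFD 4 was the highest HFD array for 10 of 18 genes (55.6%), NCD 4 the lowest NCD array for 13 (72.2%) and NCD 3 the highest NCD array for 11 (61.1%). Such ranks were common among all 7629 genes above the olfactory receptor 95th percentile, where the shares were 50.2%, 39.3% and 56.3%, and over all genes they were 30.0%, 24.6% and 32.8%. HFD 4 and NCD 3 also had the widest spread of values in their groups (SD 1.776 and 1.82 over all clusters). The part of this spread in the ranks was not tested. Within the PAR bZIP family, Pearson's r over 8 arrays was 0.83 for Tef with Hlf, 0.79 for Dbp with Tef and 0.51 for Dbp with Hlf, and it was 0.83 for Bhlhe40 with Bhlhe41. After the group means were removed these were 0.955, 0.52, 0.45 and 0.72. Nfil3 had an r of -0.78 with Bhlhe41 and of -0.50 with Dbp, and after the group means were removed of -0.39 and 0.35. These values describe 8 arrays that share hybridization and scaling, and carry no test.

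Among the genes brighter than the olfactory receptor 95th percentile, the genes most like each factor were named by Pearson's r over the 8 arrays, as a description. For Nfil3 they were Tmem134 (0.98), Dnttip1 and Rbbp7 (0.96 each), and the most opposite was Tgif1 (-0.96). Plxnd1 was most like Tef (0.99), Slc39a7 most like Dbp (0.94), Ezh2 most like Hlf (0.97), Cds2 most like Bhlhe40 (0.96) and Cab39 most like Rora (0.98). For Bhlhe41 the most alike was Phxr4 (0.946) and, at the opposite end, Sept9 (-0.92), Tusc1 (-0.91) and Ccrn4l (-0.91), the deadenylase-like gene nocturnin that is itself rhythmic. For Rorb the most alike was Marveld1 (0.94) and the most opposite Vps54 (-0.98), Car5b and Tshr (-0.97 each). With so many genes and only 8 arrays, high values arise for any gene.

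The core clock loop list, the machinery that drives these factors, had 18 measured genes, of which 0 passed the limma threshold in either direction. At an unadjusted limma p under 0.05 there were 4 with higher means in HFD (Per3, Nr1d1, Nr1d2 and Arntl2) and 2 with lower means (Arntl and Cry1), and the methods' t-test gave 2 and 1. The shares of all genes at that limma cut were 2.73% higher and 4.52% lower. Of the 18 genes, 8 had means below 6.46, among them Arntl2, which lay below it on all 8 arrays, Per3, above it on 3, and Arntl, above it on 5, so the sizes of these differences are uncertain. The median difference was 0.09, against -0.01 over all genes. Nr1d2, a Rev-erb repressor, led the list at 8.97, 9.12, 9.20 and 9.34 on HFD arrays 1 to 4, against 8.69, 8.86, 8.90 and 8.33 on NCD arrays 1 to 4. The Nr1d2 groups did not overlap, and the difference was 0.46 ± 0.14 (SE, limma adjusted p = 0.371). Its partner Nr1d1 differed by 0.465 ± 0.17 (SE, limma adjusted p = 0.558) and Per3 by 0.51 ± 0.17 (SE, limma adjusted p = 0.473). On the other side, Arntl, the gene of Bmal1, differed by -0.295 ± 0.12 (SE, limma adjusted p = 0.614) and Cry1 by -0.32 ± 0.14 (SE, limma adjusted p = 0.648). Clock differed by -0.13 and Npas2 by -0.02.

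**Figure D4:**
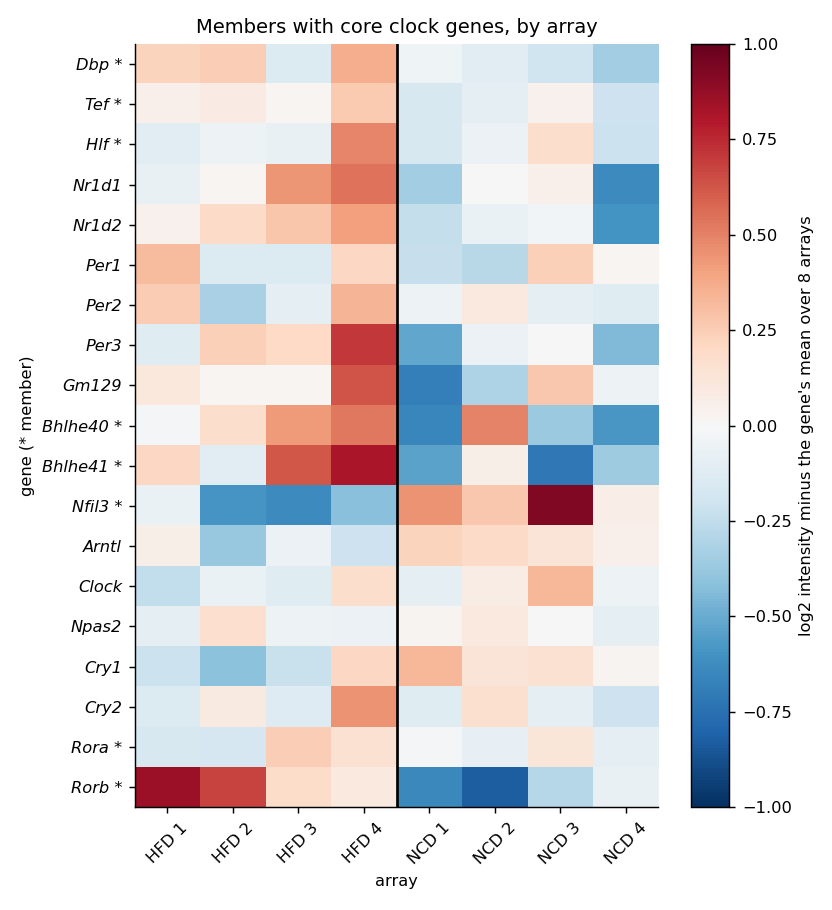
Rows are factors (starred) and core clock genes, columns are the 4 HFD and then the 4 NCD arrays, and colour is the log2 intensity minus the mean of the gene over 8 arrays, from -1 (blue) to 1 (red). HFD 4 is above the mean of the gene in every row except Nfil3, Arntl and Npas2, and Nfil3 is below its mean on all HFD arrays and above it on all NCD arrays.

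**Figure D5:**
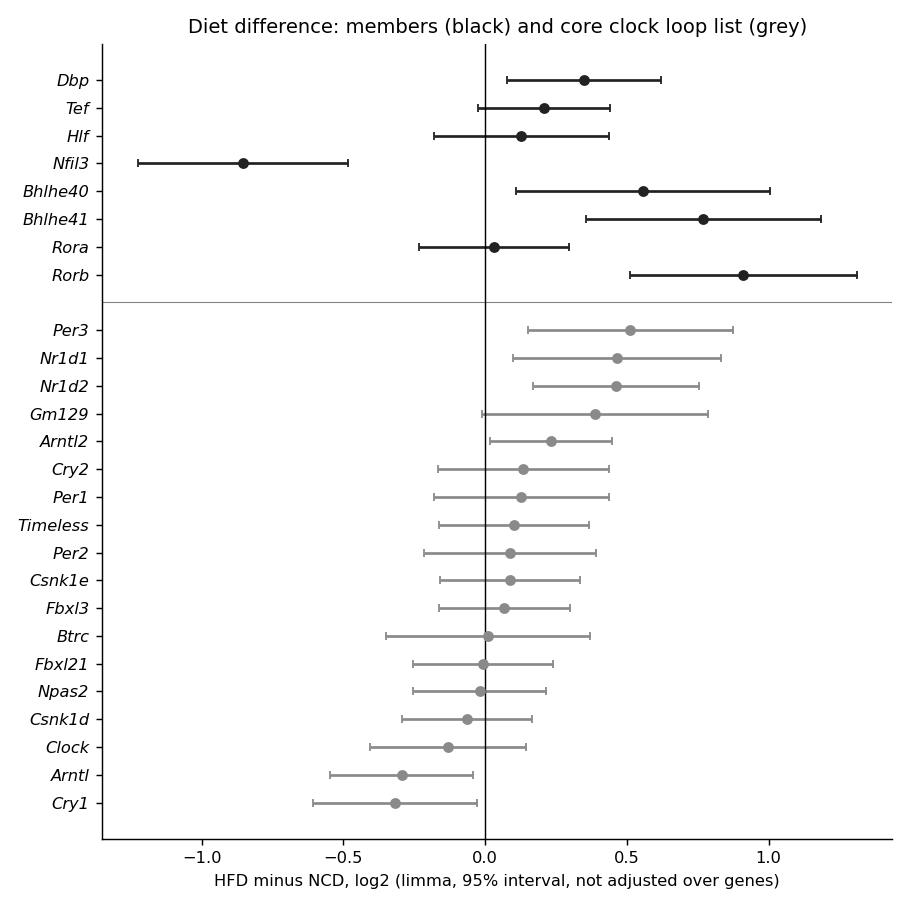
Points are HFD minus NCD differences (log2) with 95% intervals from limma, not adjusted over genes, for the 8 factors (black, above) and the 18 genes of the core clock loop list (grey, below). The Nfil3 interval lies wholly below 0 and those of Dbp, Bhlhe40, Bhlhe41 and Rorb wholly above it, and the core clock differences run from -0.32 (Cry1) to 0.51 (Per3, below 6.46 on 5 arrays).

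Of 30 other genes listed as rhythmic outputs or as PAR bZIP targets in mouse tissues, 0 passed the limma threshold in either direction. At an unadjusted limma p under 0.05 there were 3 with higher and 6 with lower means in HFD, and the methods' t-test gave 2 and 5. Over all genes 2.73% were higher and 4.52% lower at that limma cut. Of the 30 genes, 10 had means below 6.46. Among these was Mthfd1l, 1 of the 3 higher genes, which lay below it on all 8 arrays, so the size of its difference is uncertain. The median difference over the list was -0.05, against -0.01 over all genes. Cyp2b10, a cytochrome P450 whose level depends on PAR bZIP factors in mouse liver, led the list at 8.54, 7.71, 7.85 and 8.29 on HFD arrays 1 to 4, against 7.06, 7.15, 7.42 and 7.33 on NCD arrays 1 to 4. The Cyp2b10 groups did not overlap, and the difference was 0.86 ± 0.17 (SE, limma adjusted p = 0.0698). Other PAR bZIP targets known from liver or brain went either way: Por, the P450 reductase, differed by 0.05, Cyp2a5 by 0.095, Pdxk, a vitamin B6 kinase, by -0.06 and Alas1, the first enzyme of heme synthesis, by -0.40 (limma adjusted p = 0.443). The mean of Cyp2a5 over 8 arrays was 6.4, and it lay above 6.46 on only 4 of them, so the size of its difference is uncertain. Hsd11b1, which regenerates active glucocorticoid, measured 7.48 ± 0.26 in HFD and 8.36 ± 0.39 in NCD (SD, n = 4 each), a difference of -0.88 ± 0.18 (SE, limma adjusted p = 0.0817). Gys2, a glycogen synthase, differed by -0.725 ± 0.18 (SE, limma adjusted p = 0.220) and Ccrn4l by -0.51 ± 0.14 (SE, limma adjusted p = 0.283). The Cyp2b10 and Hsd11b1 calls were on the other side of the threshold with an intensity trend and robust prior, with the replicate number as a block and without dim genes. That of Cyp2b10 was so without HFD 2 or without HFD 3, and that of Hsd11b1 without NCD 1, alone or together with HFD 3.

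Among 11 relatives of the bZIP factors in the C/EBP, ATF, AP-1 and CREB families, 0 passed the limma threshold. Cebpb, an adipogenic C/EBP factor, had an unadjusted limma p under 0.05 (1 of 11, lower, against 4.52% of all genes), and the methods' t-test gave 0. Its mean was 8.205 ± 0.05 in HFD and 8.58 ± 0.32 in NCD (SD, n = 4 each), with a difference of -0.38 (limma adjusted p = 0.573). The list had lower means in HFD for 9 of 11 genes and a median difference of -0.12. Over all genes 11433 of 21759 had a lower mean, and the median difference over the genes with means above 6.46 was -0.055.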

How the data were processed

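RNA from brown adipose tissue was measured on 8 Affymetrix whole-transcript mouse gene arrays, 4 HFD and 4 NCD by their titles. The authors' processing, per the series design text, was a log transform followed by quantile normalization in Affymetrix Power Tools, whose version the sources used here do not give. The deposited values are log2 intensities, and both deposited tables held identical values for all 25254 clusters. The authors' deposited table also gives a p-value and a signed fold for diet, with Student's t-test named as the method. Array medians lay between 5.91 and 5.99 and array SDs between 1.69 and 1.82. The deposited cluster values thus do not share 1 distribution across arrays, although quantile normalization is named. Correlations between arrays were 0.976 to 0.991, and no arrays were duplicates.

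The brightest cluster by mean over 8 arrays stood for each of 21759 genes. Differences are HFD minus NCD fitted over the whole table with the lmFit and eBayes functions of limma 3.58.1 (R 4.3.3). Tests were two-sided, p-values were adjusted over all genes by Benjamini-Hochberg, and the threshold was 0.05. Arrays have no count depth, so the number of arrays limits the precision. The 20 alternatives covered variance models (an intensity trend with a robust prior, and the methods' t-test), weights per array, a replicate block, leaving out dim genes (mean under the olfactory receptor 95th percentile), several clusters of a gene, scaling and arrays left out. The 8 factors are always named, genes of the other lists may be, and the genes most like a factor are the 3 of highest and 3 of lowest r. Members and lists were chosen with earlier results of these data known.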

Additional observations from a re-analysis of the deposited data

Results flagged for a closer look

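In a group of 4 arrays, an array was set apart when its gap to the nearest other array took more of the group's range than Dixon's critical value at 95%. Over the 8 factors and the core clock and rhythmic output lists, 112 groups were checked and 7 stood out, and chance gives about 1 in 20. Of the 16 groups of the 8 factors 1 stood out, that of Hlf in HFD: HFD 4 was at 8.26, against 7.66 to 7.72 on the others (share of range 0.9). HFD 4 also stood high for Gm129, the clock repressor now called Ciart, at 7.51, against 6.90 to 6.99 on the others (0.852), and for Lpin1, a phosphatidate phosphatase, at 9.83, against 9.25 to 9.28 (0.948). NCD 3 stood high for Klf9 at 7.75, against 7.22 to 7.26 (0.925), and for Dio2, which activates thyroid hormone, at 7.69, against 7.08 to 7.14 (0.902). Pdxk was low on HFD 3 at 6.53, against 6.66 to 6.67 (0.929), and on NCD 2 at 6.51, against 6.73 to 6.77 (0.846).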

How the results depend on the processing

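Every difference of Dbp, Tef, Nfil3, Bhlhe40, Bhlhe41 and Rorb kept its sign under all alternatives run. When 1 array was left out, Hlf ran from -0.0142 (without HFD 4) to 0.2083 (without NCD 3) and Rora from -0.045 (without HFD 3) to 0.095 (without HFD 2). Rora also turned to -0.0117 without HFD 4 and to -0.0433 with NCD 1 and HFD 3 both left out. The number of the 8 factors past the threshold, 0 over all arrays, was 2 with an intensity trend and robust prior (Nfil3 and Rorb), 1 without dim genes (Nfil3, with Dbp and Rorb not tested) and 0 to 2 when 1 array was left out. Of the rhythmic output list, 2 genes passed with the trend and robust prior, 2 with the replicate block, 2 without dim genes, 1 without NCD 1 and HFD 3, and 0 to 1 when 1 array was left out. The core clock list stayed at 0 under all 20. Over all genes 31 passed, against 70 with the trend and robust prior, 0 with the methods' t-test (1514 at an unadjusted p under 0.05), 55 without dim genes, 3 without NCD 2 and NCD 3, and 21 to 38 when 1 array was left out. The replicate numbers of the groups gave no sign of pairing the arrays: deviations from the group means correlated between -0.165 and 0.002 for arrays of the same number, and no array correlated best with its own number. The highest correlations were 0.324 (HFD 4 with NCD 3) and 0.319 (the muscle-marked HFD 3 with NCD 1). A weaker pairing could go unseen beside these. With the replicate block 36 genes passed, 0 of them among the 8 factors. The scalings moved the median of all genes by at most 0.0124, but the differences of several factors by more. Under cyclic loess the difference was 0.10 for Rora (0.03 as deposited), 0.20 for Hlf (0.13), 0.63 for Bhlhe40 (0.56) and -0.78 for Nfil3 (-0.855). The limma adjusted p of Nfil3 was then 0.128. The level near background limits the values of Rorb, Dbp and Bhlhe41.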
